A study of Mus musculus with 19 samples.

Results

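The nuclear factor I (NFI) family was described here in mouse liver DNA methylation, as the CpG sites that the authors' 3 deposited tables list inside Nfia, Nfib, Nfic or Nfix or within 2 kb of either end of these genes. Such sites numbered 28 of the 8525 distinct sites in the tables, and they took 55 of the 12334 table lines. Nfix held 27 of the 28 sites, Nfib held 1, and Nfia and Nfic held 0. Because the tables hold only sites that the authors listed as differing, the members were chosen by the deposited differences and q-values together with position. In both comparisons with WT every listed absolute difference was above 20 percentage points in the authors' deposited tables. The value 20 is called the threshold below, although the sources used here state none. The largest listed q-value (a p-value adjusted for multiple testing) was 0.0178 in KO SAMe vs WT and 0.00610 in KO placebo vs WT. For KO SAMe vs KO placebo it was 0.0495, in the authors' deposited tables. The values that chose the sites are described below, and no test was made on them.

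The assay was reduced-representation bisulfite sequencing, in which MspI and TaqαI cut the genome into CpG-rich fragments and the methylation of each cytosine in them is read after bisulfite treatment. Livers came from 19 mice aged 10 months. They were 5 MAT1A KO mice given SAMe supplementation, 6 MAT1A KO mice given placebo and 8 MAT1A WT mice with no treatment, and the series title gives 8 weeks of SAMe or placebo. MAT1A is the liver methionine adenosyltransferase, which makes S-adenosylmethionine (SAMe), the methyl donor of DNA methylation. The WT mice received no placebo, so each comparison with WT changed the genotype and the dosing together. All KO mice lacked MAT1A, and none of the deposited comparisons had a WT group given SAMe. No site was listed in or within 2 kb of Mat1a in any table (0 in each), and difference tables of this kind check neither the deletion nor the liver origin of the DNA.

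NFI proteins are transcription factors that bind DNA as homodimers or heterodimers. Their N-terminal domain recognises the palindrome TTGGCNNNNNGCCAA or one of its arms, and their C-terminal parts activate or repress transcription. The 4 mammalian genes are best known from development. Nfia acts in glial fate, Nfib in lung and brain maturation and Nfic in tooth root formation. Nfix acts in brain and in the switch from embryonic to fetal muscle programmes. In liver, NFI sites are known from the promoters of hepatocyte genes such as albumin.

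RefSeq promoter windows (build GRCm38.p6, 250 bases before to 50 after an annotated start) were found for 3 of the 4 members, 6 windows in all, 4 of them for Nfix. The windows below are shown because the listed Nfix sites lie on either side of the first one without entering it, while Nfic and Nfia had no listed site. Capitals mark CpG dinucleotides, the positions at which methylation is read.
Nfix, chr8:84780033-84780332, minus strand: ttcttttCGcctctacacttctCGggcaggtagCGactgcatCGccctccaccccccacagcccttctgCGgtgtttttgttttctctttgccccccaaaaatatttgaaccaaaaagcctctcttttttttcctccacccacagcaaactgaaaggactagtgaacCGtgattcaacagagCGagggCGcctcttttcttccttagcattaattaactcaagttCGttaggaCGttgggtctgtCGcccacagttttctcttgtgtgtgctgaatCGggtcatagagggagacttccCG
Nfic, chr10:81427124-81427423, minus strand: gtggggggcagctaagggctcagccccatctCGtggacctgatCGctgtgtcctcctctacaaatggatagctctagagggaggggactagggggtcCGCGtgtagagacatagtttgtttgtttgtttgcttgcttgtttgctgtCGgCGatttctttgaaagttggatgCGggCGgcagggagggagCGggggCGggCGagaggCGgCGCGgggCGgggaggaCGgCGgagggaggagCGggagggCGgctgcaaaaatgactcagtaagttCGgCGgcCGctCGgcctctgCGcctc
Nfia, chr4:97581693-97581992, plus strand: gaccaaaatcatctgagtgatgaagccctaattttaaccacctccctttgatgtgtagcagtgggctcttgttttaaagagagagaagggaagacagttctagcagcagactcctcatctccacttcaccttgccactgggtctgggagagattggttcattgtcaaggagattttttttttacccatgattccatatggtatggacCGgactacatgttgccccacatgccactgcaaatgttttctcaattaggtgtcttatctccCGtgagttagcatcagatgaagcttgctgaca

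The Nfix window held 13 CpG dinucleotides, the Nfic window 24 and the Nfia window 2, against a median of 7 over 32851 RefSeq promoter windows. The letters CCGG, the MspI cutting site, occurred 0 times in the Nfix and Nfic windows and 1 time in the Nfia window, and 52.8% of all windows held them. TCGA, the site of TaqαI, was in none of these 3 windows (0 matches) and in 22.0% of all windows. One NFI arm, TTGGC on either strand, had 0 matches in the 3 printed windows, and 46.7% of all windows held it. In the other 3 Nfix windows it had 1, 1 and 2 matches. The full palindrome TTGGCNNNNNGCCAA had 0 matches in all 6 windows of the family, and 0.0365% of all windows held it. These are matches of letters in short windows and do not show binding, and a CpG far from a cutting site would not have been read.

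In both comparisons with WT, 2 of the 4 members, Nfix and Nfib, had a lower site in KO liver, and 0 had a higher one. Over 21887 protein-coding genes, 10.7% had a lower site in KO SAMe vs WT and 12.5% in KO placebo vs WT, and 0.0914% and 0.0777% had a higher one. Among the 6688 coding genes of 35 kb or longer, which takes in all 4 members, these shares were 16.8% and 20.5%. With 4 genes, 2 of which carry sites, no statement about the family as a class follows from this count. Between KO SAMe and KO placebo mice, 0 of 4 members had a listed site, and 0.384% of coding genes had a higher and 0.274% a lower one.

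Nothing in the deposited files says which group each difference was taken from. Differences are given here as KO minus WT and as KO SAMe minus KO placebo, the usual order of the program named by the submitters. At the 26 sites listed in all 3 tables the differences added up under this reading within 1e-06 percentage points, which shows that the tables share 1 orientation. Under the reverse reading all the directions below would flip at once. The tables used here give neither methylation levels nor read depth nor single animals, so depth is unknown and spread between animals cannot be given. In whole liver, a change in the methylation of a cell type and a change in the share of that cell type cannot be told apart.

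Nfix (chromosome 8, 84704712 to 84801238, 96527 bp, mm10 coordinates) carried 27 listed sites in KO SAMe vs WT and 26 in KO placebo vs WT, all lower in KO in the authors' deposited tables. Only 2 of the 21887 coding genes had more listed sites in either comparison. Among genes with any listed site, the median was 1 site, and 58.5% in KO SAMe vs WT and 56.1% in KO placebo vs WT had a single one. The mean Nfix difference was −40.9 percentage points (quartiles −46.9 and −36.0, 27 sites) in KO SAMe vs WT and −38.4 (quartiles −45.0 and −29.9, 26 sites) in KO placebo vs WT in the authors' deposited tables. Over all listed lower sites the medians were −26.7 and −25.9 percentage points in the same order of comparisons, while those of Nfix were −40.2 and −38.8 in the authors' deposited tables. The quartiles describe how sites differ from one another and are not an error between animals.

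**Figure D1:**
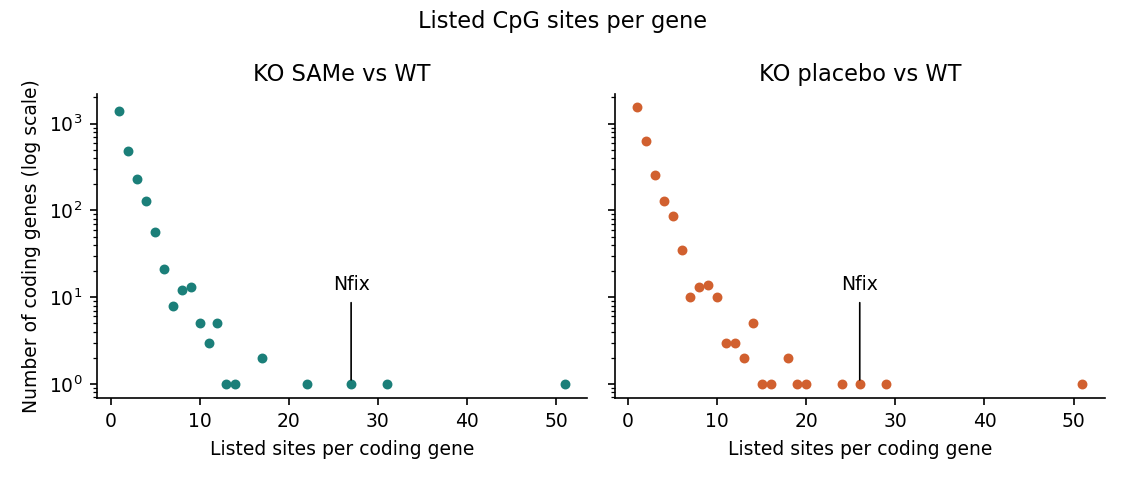
Number of coding genes (vertical, log scale) against the number of listed CpG sites per gene (horizontal), for KO SAMe vs WT on the left and KO placebo vs WT on the right. Each point is a count of genes, genes with no site are not drawn, and Nfix is marked at 27 and 26 sites.

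Large differences made up much of the Nfix sites. Of the 27 sites in KO SAMe vs WT, 15 differed by at least 40 percentage points, as did 12 of 26 in KO placebo vs WT, in the authors' deposited tables. The share over all listed sites was 10.8% in KO SAMe vs WT and 9.27% in KO placebo vs WT. Of these large Nfix differences, 13 in KO SAMe vs WT and 11 in KO placebo vs WT were neighbouring sites of the single run described below. Differences of this size were not particular to Nfix. Mean differences were larger in Prob1 (−44.7 and −45.9 percentage points) and Fbrsl1 (−47.2 and −48.2), which also had many listed sites, in the authors' deposited tables. The q-value was listed as 0 at 20 and 18 of the Nfix sites in the same order of comparisons. It was also 0 at 36.4% and 39.0% of all listed sites. The largest Nfix q-value was 2.04e-09 in KO SAMe vs WT and 1.26e-06 in KO placebo vs WT in the authors' deposited tables.

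All 27 sites lay inside the annotated gene, and none was in the 2 kb margins. The annotation used here has no exons, so exons, introns and untranslated regions were not distinguished. Nfix runs on the minus strand, and the most upstream of the 4 starts in the promoter table is at position 84780082, with 21156 bp of annotated gene farther upstream. Of the 27 sites, 23 formed a single run between 84784452 and 84785021, 570 bp long, when sites within 1 kb were joined. This run lay 4370 to 4939 bp upstream of that start. The other 4 sites stood singly along the gene, and 0 of the 27 sites fell in a promoter window. None of the 4 Nfix windows covers the upstream end of the annotated gene, so a promoter there was not examined. Coverage of the windows is unknown, so this count does not show that Nfix promoters were unchanged.

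**Figure D2:**
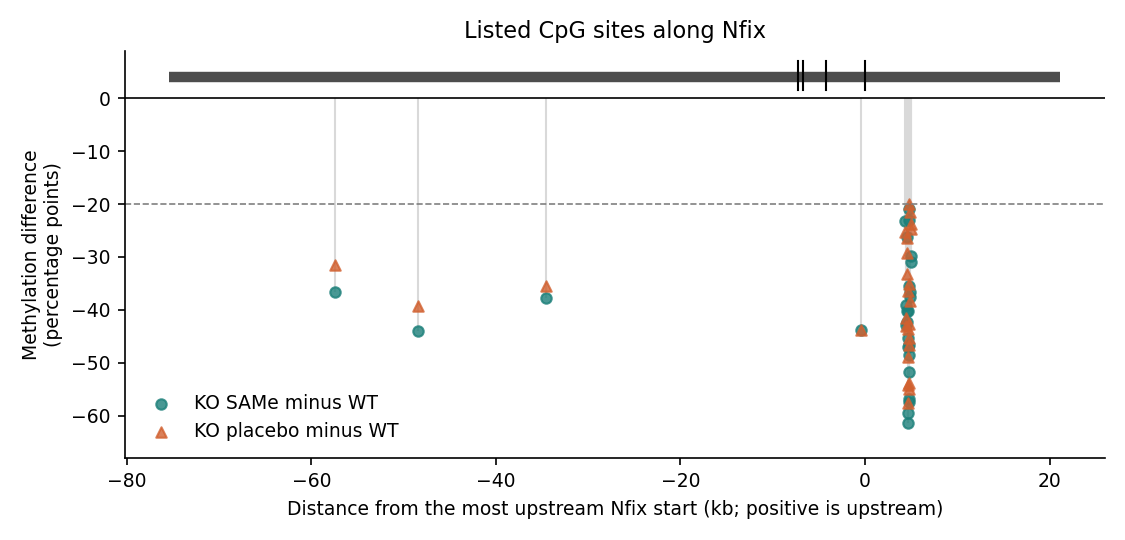
Methylation difference in percentage points (vertical) at each listed Nfix site. The horizontal axis is the distance in kb from the most upstream of the 4 starts with a promoter window (positive is upstream). Circles are KO SAMe minus WT and triangles KO placebo minus WT. The bar is the annotated gene, the short ticks are these 4 starts and the dashed line is the threshold of 20. Together, 23 of 27 sites stand upstream of the first of these starts but inside the annotated gene, which extends farther upstream.

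The 4 single sites lay downstream of the first of the 4 starts with a promoter window. The run lay upstream of that start but also inside the annotated gene. The site at 84779697, 4755 bp from the run, stood at −43.7 percentage points in KO SAMe mice and −43.9 in KO placebo mice, both against WT, in the authors' deposited tables. At 84745484 the values were −37.7 in KO SAMe mice and −35.6 in KO placebo mice, and at 84731676 they were −44.0 and −39.3 in the authors' deposited tables. The last one, at 84722640, had −36.6 in KO SAMe mice and −31.6 in KO placebo mice in the authors' deposited tables. These 4 sites averaged −40.5 percentage points in KO SAMe vs WT and −37.6 in KO placebo vs WT, close to the averages of the run, −41.0 over 23 sites and −38.5 over 22 sites, in the authors' deposited tables. The lower methylation was therefore listed at separate places over much of the gene as well as in the run.

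Within the run, neighbouring sites were a median of 7 bp apart, and gaps of over 50 bp divided it into 5 blocks. The block nearest to the start, 3 plus-strand sites between 84784452 and 84784484, had a mean of −35.1 percentage points in KO SAMe vs WT and −36.6 in KO placebo vs WT in the authors' deposited tables. The next, 3 minus-strand sites between 84784628 and 84784635, had means of −36.3 and −29.7 in the authors' deposited tables. These were of middle size for the run.

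The central block was the densest and held both the largest and the smallest differences of the run. It had 12 sites in 63 bp between 84784775 and 84784837, with a mean of −46.6 percentage points in KO SAMe vs WT (12 sites) and −45.8 in KO placebo vs WT (11 sites) in the authors' deposited tables. The largest Nfix differences were at its first 2 sites. Position 84784777 stood at −61.4 in KO SAMe mice and −54.2 in KO placebo mice, and position 84784775 at −59.5 and −57.7, in the authors' deposited tables. Farther upstream, 2 sites at 84784904 and 84784911 averaged −36.5 in KO SAMe vs WT and −36.8 in KO placebo vs WT in the authors' deposited tables. The outermost block, 3 sites between 84784986 and 84785021, averaged −32.5 and −23.4, the smallest mean of the 5 blocks in both comparisons, in the authors' deposited tables.

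Close neighbours did not always have like values. At 84784818 the difference was −20.9 percentage points in KO SAMe mice and −20.0 in KO placebo mice, just past the threshold of 20, in the authors' deposited tables. The sites 10 bp before it and 7 bp after it, at 84784808 and 84784825, stood at −57.5 and −56.9 in KO SAMe mice and at −53.8 and −55.0 in KO placebo mice in the authors' deposited tables. The one Nfix site missing from KO placebo vs WT was 84784837, at −23.1 percentage points in KO SAMe mice, 3 bp from 84784834 at −46.6, in the authors' deposited tables. A missing site was either under a threshold or not covered, and the tables do not say which.

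**Figure D3:**
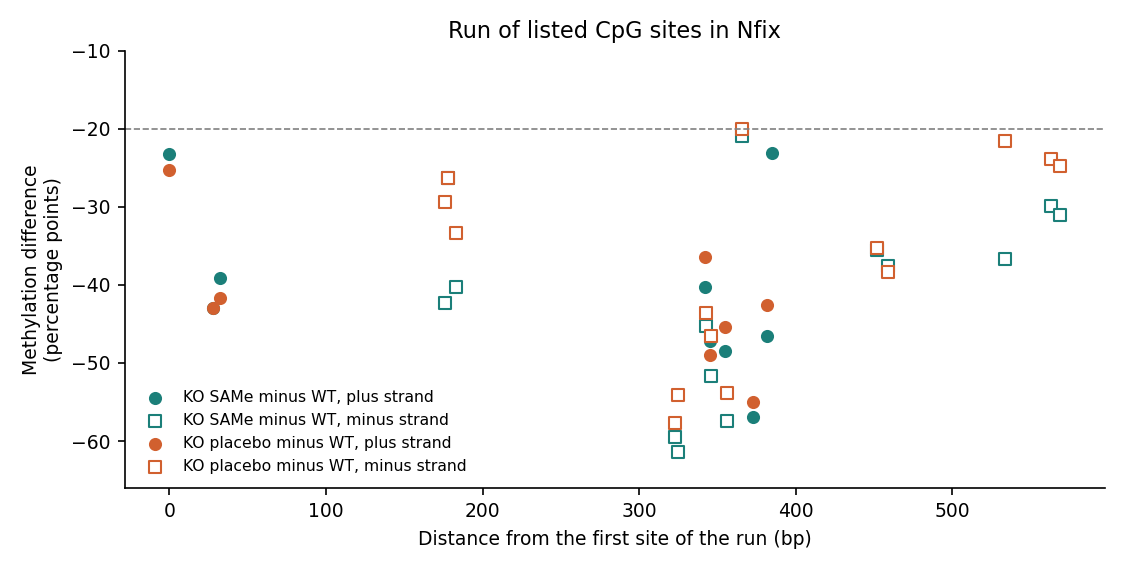
Methylation difference in percentage points (vertical) at the 23 sites of the Nfix run against the distance in bp from its first site (horizontal). Filled circles are plus-strand and open squares minus-strand sites, and KO SAMe minus WT and KO placebo minus WT have a colour each. The dashed line is the threshold of 20. The central block reaches −61.4 and also holds 1 minus-strand site just past the threshold.

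A CpG has a cytosine on each strand, and in 3 Nfix CpGs both were listed as separate lines. This shows how far apart the 2 strands of one CpG were listed in the same animals. Reading error and a real difference between strands cannot be told apart in these gaps. The 27 listed sites of Nfix thus stood for 24 CpG dinucleotides. Between the strands of one CpG, differences from WT were 4.56 to 8.97 percentage points apart in KO SAMe vs WT and 2.39 to 8.41 apart in KO placebo vs WT. Across the genome, 21 CpGs in KO SAMe vs WT and 23 in KO placebo vs WT were listed on both strands in the authors' deposited tables. The largest gap among them was 16.0 percentage points in KO SAMe vs WT and 16.9 in KO placebo vs WT. Both strands had to pass the threshold to be counted, so this gap leaves out pairs that differed more. Position 84784818 differed from its neighbours by more than the largest of these gaps, but the pairs left out could exceed that gap. Whether reading error accounts for the value at this position was not tested.

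Next, the KO groups were compared at the 26 Nfix sites listed against WT in both. Both comparisons with WT use the same WT animals, so the SAMe minus placebo difference was obtained by subtracting the deposited differences site by site, which removes the WT values. It averaged −3.28 percentage points (SD over sites 4.25, 26 sites) and ran from −15.1 to 2.58. Methylation was lower in KO SAMe than in KO placebo mice at 19 sites and higher at 7, and 18 sites were within 5 percentage points. Over the 3707 sites of the series listed in both comparisons with WT the mean was −0.52 (SD over sites 5.85), and 54.2% were lower in KO SAMe mice. No Nfix site was listed in the authors' deposited table of KO SAMe vs KO placebo.

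Sites that differed by over 10 percentage points between the KO groups numbered 2 of 26 in Nfix, against 8.34% of the 3707 sites. The Nfix count was thus near the share of the series, and the 2 sites are described only. Position 84784986 stood at −36.7 in KO SAMe mice and −21.6 in KO placebo mice, and position 84784628 at −42.3 and −29.3, in the authors' deposited tables. The other sites of these 2 blocks showed 0.06 to −6.96 percentage points by subtraction. The 3 sites of the outermost block were all lower in KO SAMe mice, by subtraction, with a mean of −9.14. No error between animals is available for these values, and whether they differ from 0 was not tested.

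**Figure D4:**
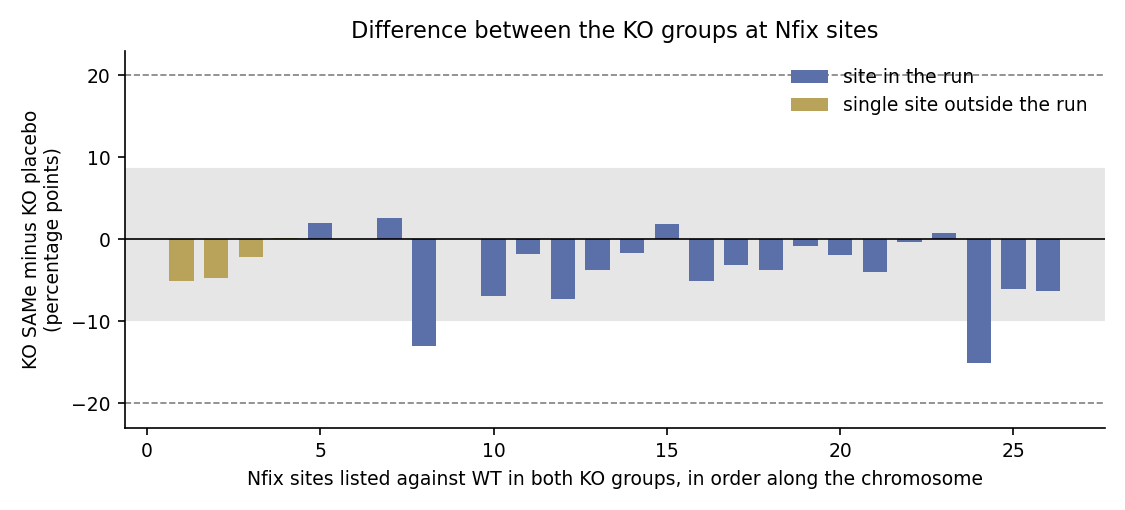
KO SAMe minus KO placebo difference in percentage points (vertical), by subtraction, at the 26 Nfix sites listed against WT in both KO groups, in chromosome order (horizontal). Bars are sites, and the grey band spans the 5th to the 95th percentile of the 3707 sites treated alike (−9.88 to 8.57). By construction the band leaves out the lowest and the highest 5% of those sites. Dashed lines mark 20 percentage points in either direction. The bars at 84784628 and 84784986 leave the band and none reaches 20.

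Nfib (chromosome 4, 82290173 to 82506751, 216579 bp) had a single listed site, on the minus strand at position 82498651, 8100 bp inside the upper end of the gene. The difference from WT was −41.9 percentage points in KO SAMe mice and −45.2 in KO placebo mice, both with a q-value listed as 0, in the authors' deposited tables. By subtraction KO SAMe stood 3.23 above KO placebo at this site, and no spread between animals is available for that value. The size of the Nfib difference was thus like that of Nfix sites, but it rested on 1 CpG, and nothing within the gene repeats it.

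Nfia (chromosome 4, 97578066 to 98118876, 540811 bp) is the longest member and had 0 listed sites in the 3 tables. The nearest listed sites were 485.0 kb above its end, in KO placebo vs WT at −20.4 percentage points, and 2399.3 kb below its start in the authors' deposited tables. Nfic (chromosome 10, 81396191 to 81431919, 35729 bp), the shortest member, also had 0, although listed sites began 5349 bp below it, outside the 2 kb margin. For Nfix, by contrast, the next listed sites outside the margins were 33.6 kb from its low-coordinate edge, near Nacc1, and 111.3 kb from its high-coordinate edge. Without coverage, no difference between the members in methylation itself can be read from these counts.

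The coding genes closest to Nfix in their number of listed sites over the 3 tables were Prob1, Gse1 and Fbrsl1. Their listed sites, like those of Nfix, were lower in KO only. Prob1 had 31 sites in KO SAMe vs WT and 29 in KO placebo vs WT, with means of −44.7 and −45.9 percentage points in the authors' deposited tables. Gse1, which encodes a corepressor subunit, had 22 and 24 sites with means of −29.6 and −29.4, and Fbrsl1 had 17 and 20 with −47.2 and −48.2 in the authors' deposited tables. Nfix lay between Gse1 and the other two in the size of its differences. Its run with the most sites spanned 570 bp, less than that of Prob1 (1218 bp) and of Fbrsl1 (753 bp). That of Gse1 spanned 417 bp. Listed sites formed 16 separate groups in Gse1, 5 in Nfix, 2 in Fbrsl1 and 1 in Prob1.

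By subtraction, KO SAMe minus KO placebo averaged −3.28 in Nfix, −3.38 in Gse1 (13 sites), 1.11 in Prob1 (29 sites) and 0.25 in Fbrsl1 (15 sites). The SD over sites was 4.25 in Nfix, 5.98 in Gse1, 2.65 in Prob1 and 3.18 in Fbrsl1, and sites of one gene share animals and fragments. Whether these genes differ from one another was not tested.

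**Figure D5:**
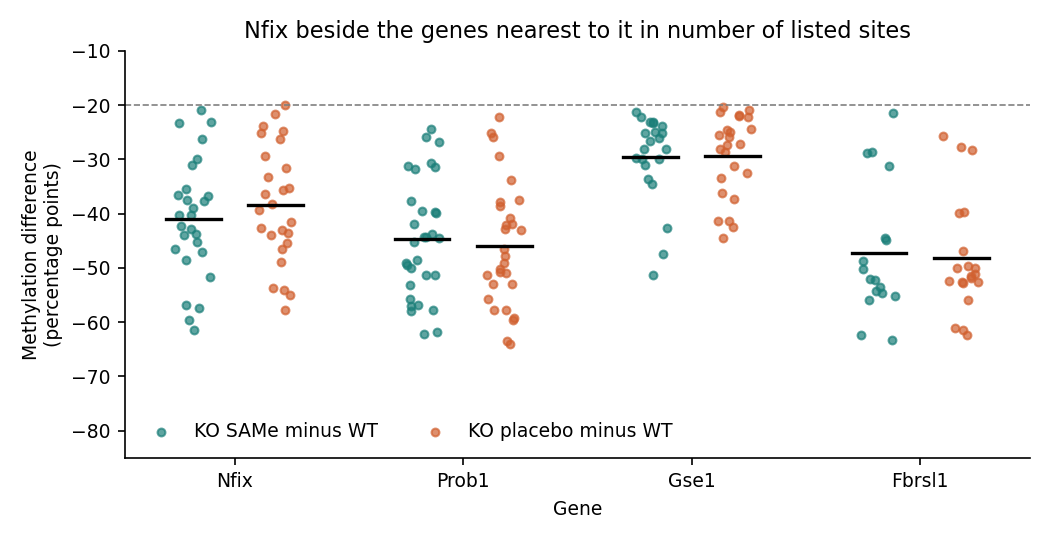
Methylation difference in percentage points (vertical) at each listed site of Nfix and of the 3 coding genes nearest to it in number of listed sites (horizontal). Points are sites, KO SAMe minus WT on the left and KO placebo minus WT on the right of each gene, black lines are means over sites and the dashed line is the threshold of 20; the Nfix means of −40.9 and −38.4 lie between those of Gse1 and those of Prob1 and Fbrsl1.

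Genes that work with NFI proteins were then counted in 2 lists. Both lists were chosen with earlier results of these data known, and their genes were not matched in length to all coding genes. Their shares are therefore described only, and whether they exceed those of all coding genes was not tested. Of 21 NFI partners and liver transcription factors, 6 had a lower site in KO SAMe vs WT and the same number in KO placebo vs WT (28.6% each, against 10.7% and 12.5% of all coding genes), and 0 had a higher one. The median of their 15 listed sites in each comparison was −25.4 and −26.7 percentage points, near the medians of all listed lower sites, in the authors' deposited tables. Ski, a nuclear corepressor of TGF-beta signalling that also binds NFI proteins, had 7 sites in each comparison with means of −28.0 in KO SAMe vs WT and −30.7 in KO placebo vs WT in the authors' deposited tables. Its largest difference, −47.5 in KO SAMe vs WT, was within the Nfix range in the authors' deposited tables. Prox1, a hepatocyte homeobox factor, had 1 site at −41.9 in KO SAMe mice and −34.1 in KO placebo mice, and Rxra, the partner of many nuclear receptors, 1 site at −36.2 and −29.1 in the authors' deposited tables. Sox9 had 2 sites and Foxa1 had 1 in each comparison, with means from −27.3 to −22.3 in the authors' deposited tables. In this list 14 genes, Hnf4a, Cebpa and Foxa2 among them, had 0 listed sites.

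Of 22 genes reported as NFI targets, 4 had a lower site in KO SAMe vs WT (18.2%, against 10.7% of all coding genes). In KO placebo vs WT 6 had a lower site (27.3%, against 12.5%), and 0 had a higher one in either comparison. Afp, the fetal liver alpha-fetoprotein gene, had 3 sites in each comparison with means of −30.1 in KO SAMe vs WT and −26.6 in KO placebo vs WT in the authors' deposited tables. The calcineurin-dependent factor gene Nfatc4 had 3 sites in each with means of −23.8 and −23.4, and Ebf2, a brown fat regulator, had 2 in each with −23.8 and −29.2 in the authors' deposited tables. Mmd2 (5 sites, mean −27.6), the water channel gene Aqp4 (2 sites, −41.1) and the glutamate transporter gene Slc1a3 (1 site, −25.0) were listed in KO placebo vs WT only, and the fat cell receptor gene Pparg (1 site, −26.2) in KO SAMe vs WT only, in the authors' deposited tables. Being listed in one comparison does not show a difference between the KO groups, and none of these genes was listed between them. The remaining 15 genes had 0 listed sites, and no gene of either list had as many sites as Nfix.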

How the data were processed

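Liver DNA of 19 mice in 3 groups was studied by reduced-representation bisulfite sequencing. Per the submitters' processing notes the programs were CASAVA 1.8.2, Trim Galore, Bismark and methylKit and the build was mm10, with no order or settings. The authors deposited 3 tables of their own comparisons, 1 CpG cytosine per line, with a p-value and a q-value whose test is not given in the sources used here, and a difference of methylation percentages. Depth per sample is unknown, since the tables hold no counts, levels or values per animal, and no test, interval or left-out animal could be computed. The tables held 0 columns of other samples.

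Sites were assigned to coding genes with RefSeq coordinates on GRCm38.p6, whose primary coordinates are those of mm10, within the gene or 2 kb of either end, with Python 3.11.15 and pandas 2.3.3, tested on simulated sites. Minus-strand lines were paired with the plus-strand line 1 base below; 0 pairs were found the other way. Sites within 1 kb were joined into runs, and blocks of at most 50 bp spacing were defined after the values were seen. The members and both gene lists were chosen with earlier results of these data known. Named genes were the members, list genes with a site, the 3 genes nearest to Nfix in number of sites, and neighbours within 10 kb with a site. Some list genes with a site are not reported here. Alternatives changed the margins, thresholds and joining distance.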

Additional observations from a re-analysis of the deposited data

How the results depend on the processing

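Counts of 0 can only stay at 0 under stricter thresholds or narrower margins, and the stricter q-values removed no Nfix or Nfib site because theirs were far smaller, so those alternatives say nothing about stability. With a margin of 10 kb the 0 listed sites of Nfic became 6 in KO SAMe vs WT and 8 in KO placebo vs WT, since this margin takes in the neighbouring gene Gm48552. Nfix kept 22 of 27 sites in KO SAMe vs WT and 19 of 26 in KO placebo vs WT at a difference of at least 30 percentage points. Counting both strands of a CpG once, an alternative chosen after seeing the data, gave 24 and 23. No paired analysis was possible because the tables hold no value per animal and the labels carry no replicate numbers, and leaving out single animals was not possible for the same reason. With depth unknown, a site missing from a table cannot be read as unaffected.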

Other observations

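A group of listed sites lay beside Nfic without entering its 2 kb margin. It fell in the predicted coding gene Gm48552 (chromosome 10, 81390317 to 81391555), 4636 bp below Nfic, with Smim24 between them and 0 listed sites at Smim24. Gm48552 had 6 sites in KO SAMe vs WT, from −40.8 to −22.7 percentage points, and 8 in KO placebo vs WT, from −46.2 to −26.2, in the authors' deposited tables. Its sites lay 5349 to 5778 bp from Nfic. A site 30.7 kb above Nfib, with no coding gene within 2 kb, stood at −38.6 in KO SAMe mice and −38.4 in KO placebo mice in the authors' deposited tables.

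Listing of both strands of a CpG was rare in the series, at 21 CpGs in KO SAMe vs WT and 23 in KO placebo vs WT, and the run in Nfix held 3 of them in each comparison.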
